A study of Mus musculus with 5 samples.

Results

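The profile described here is that of the wild-type (WT) muscle lineage of the mouse fetal limb, measured by RNA sequencing in 2 libraries, the columns of the deposited expression table whose names begin with WT, out of 5 libraries in all. The cells carried Pax7-CreER and a Rosa-tdTomato reporter and no floxed allele, on a C57BL/6J background. Pregnant mothers took tamoxifen orally at 240 mg/kg, starting on E12.5 and for 2 days, and limb muscle was taken on embryonic day E16.5. Mononuclear cells free of the lineage stains (CD31, CD45 and Ter119, markers of endothelium, white blood cells and red cells) and positive for tdTomato were sorted, and their RNA was amplified with a low-input kit. Pax7-CreER makes a recombinase that tamoxifen activates in cells that use the Pax7 promoter at that time. The reporter then stays on in all their descendants, so the sort holds progenitors and the more differentiated mononuclear cells made from them. Multinucleated fibres were outside the sort, so low levels of fibre genes below hold for these cells and say nothing of whole limb muscle. The remaining 3 libraries, from fetuses with floxed Notch1 or Notch2, entered no comparison. The labels give replicate numbers but the table's columns do not, so the libraries are called WT Em2 and WT Em4 after their tags. The column names also end in digits that differ between them, with no meaning given, so a difference in handling cannot be told apart from one between samples. Whether they came from separate fetuses or litters is not stated, and their spread may be technical.

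In the limb, progenitors marked by Pax3 and Pax7 divide, and under Notch signalling they hold back differentiation. Myf5 and Myod1 commit them to the muscle fate, and myogenin (Myog) then drives exit from the cell cycle, fusion into multinucleated fibres and the switch-on of contractile genes. Fetal fibres first build their sarcomeres from embryonic, cardiac and slow isoforms, which are largely replaced later in fast muscles.

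Levels are given in RPKM (reads per kilobase of gene, scaled to the library total), which is per length. Genes of like length can thus be compared within a library. Differences between the libraries ran with gene length, as given below, so ratios of genes of unlike length may carry such a trend. Pairs of values are always in the order WT Em2, WT Em4. The percentile of a gene is the share of the 25873 named genes with a lower mean RPKM. The library totals behind the RPKM values, recovered from the deposited values, were 24416667 and 22855608 reads. Named genes held 98.5% and 98.6% of them, so these totals need not be all reads sequenced. Shares of reads below are shares of these totals. The libraries had 17683 and 17786 named genes above 0. Of the named genes, 10848 (41.9%) were at or above 1 RPKM in both libraries, 176 in WT Em2 only and 650 in WT Em4 only, and 7042 were listed at 0 in both. At or above 10 RPKM were 5243 of the 25873 named genes in WT Em2 and 5802 in WT Em4. A total of 1076 genes reached 100 RPKM in both libraries and 79 reached 1000 RPKM. Of 1069 measured genes in 55 lists of known function, 796 reached 1 RPKM in both libraries, against that background of 41.9%. The lists hold mostly protein-coding genes, and of all 20868 protein-coding genes a larger share did so (10095). Intervals and limits given below cover the counting of reads only (exact Poisson, 95%). In such bulk samples fewer cells of a type and less RNA per cell cannot be told apart.

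The sorted cells carried the markers of the muscle lineage, with myogenin far above the progenitor factors. Myog reached 1053 and 1272 RPKM, a mean of 1163 ± 155 RPKM (SD, n = 2), at percentile 99.7 and place 86 of all named genes. Myod1, the determination factor, was at 135 and 167 RPKM, percentile 96.7. Myf5, which acts beside it in commitment, was at 54.3 and 50.4 RPKM, percentile 92.4. Myf6, a factor of later fibres, was the lowest of the 4 myogenic regulatory factors at 2.46 and 3.19 RPKM. The order Myog, Myod1, Myf5, Myf6 was the same in both libraries, and the spread of no factor reached into its neighbour's. Pax7, the gene whose promoter drove the recombinase, stood at 9.9 and 12 RPKM, percentile 79.5, from 1033 and 1169 reads. Its counting intervals were 9.3 to 10.5 in WT Em2 and 11.3 to 12.7 in WT Em4. Pax3, its paralogue in earlier limb progenitors, was lower at 0.836 and 1.04 RPKM. Myog exceeded Pax7 by 106-fold and 106-fold, and Myod1 by 7.79-fold and 7.62-fold. Both ratios were picked after the values were seen. They were close in the libraries, and Myf5 exceeded Pax7 by 5.49-fold and 4.21-fold. On GRCm38 (GENCODE M21) these genes lie at chromosome 1, 134289989 to 134292548 (Myog), chromosome 7, 46376474 to 46379099 (Myod1), chromosome 10, 107482908 to 107486134 (Myf5), chromosome 10, 107492853 to 107494737 (Myf6) and chromosome 4, 139737062 to 139833528 (Pax7).

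Among the upstream homeobox and Eya regulators, 14 of 20 reached 1 RPKM in both libraries, beside 41.9% of all named genes. The list's median percentile was 69.4. Msc (musculin, a bHLH repressor of muscle genes) was the highest at 209 and 259 RPKM. Pitx3, a homeobox gene of differentiating myoblasts, was at 52.9 and 66.9 RPKM. Six4, a homeobox activator of Myog, was at 2.6 and 3.71 RPKM. The partner of Six4 with the most transcript was Eya2 at 8.58 and 12 RPKM. Lbx1, needed for progenitors to migrate into the limb, was at 2.8 and 6.38 RPKM, which was one of the wider gaps of the list. Limb bud genes lay near the bottom, with Msx1 at 0.0848 and 0.0906 RPKM and Dach2 at 0.035 and 0.0686 RPKM. No member of the list was over 2-fold apart between the libraries on log2(RPKM + 1), the scale used for every such statement here, on which 1.66% of 11306 genes that averaged 1 RPKM or more were that far apart in either direction.

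**Figure D1:**
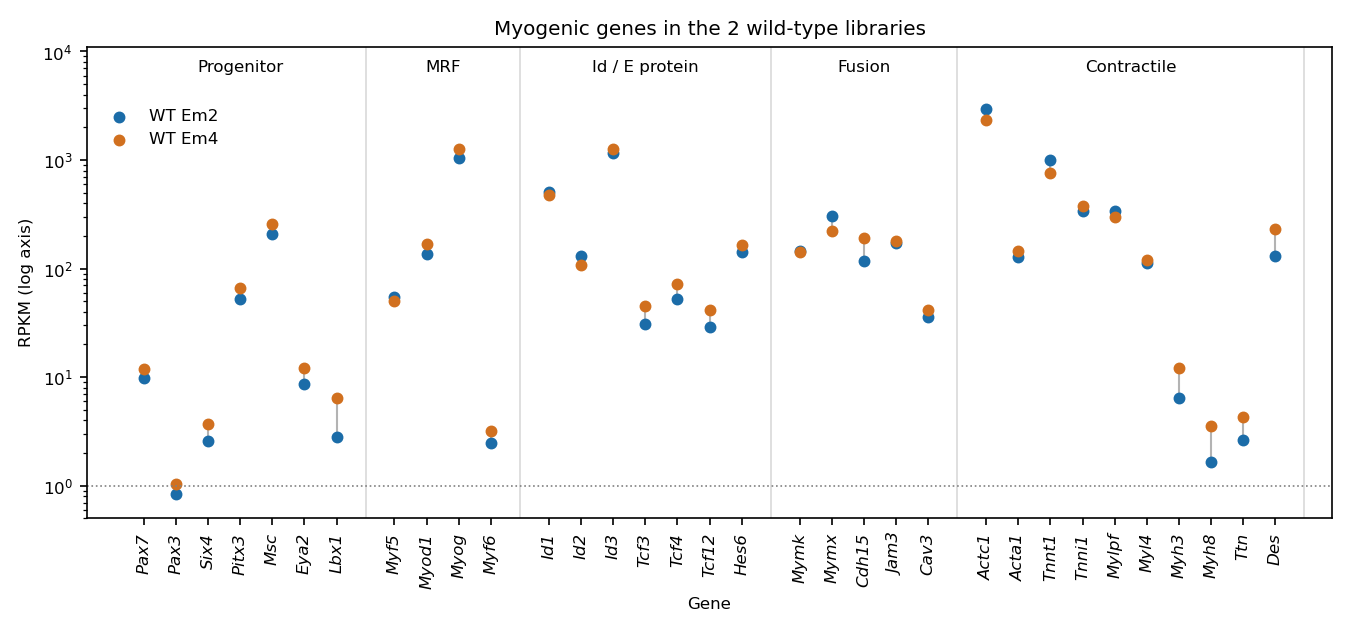
Levels of myogenic genes in RPKM (log axis), with 1 point per wild-type library (WT Em2 blue, WT Em4 orange) joined by a grey line, and a dotted line at 1 RPKM. Myog and Id3 stand near 1000 RPKM, Pax7 near 10 RPKM and Pax3 at the dotted line. Actc1 is the highest of the contractile genes shown, more than 100-fold above Myh3.

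Inhibitors of the myogenic factors were abundant beside Myog itself. Id3, an HLH protein without a DNA-binding region that ties up the E protein partners of Myod1, reached 1154 and 1257 RPKM, about the level of Myog. Id1 was at 511 and 481 RPKM and Id2 at 130.4 and 108 RPKM. The E proteins they bind were lower, with Tcf4 at 52.2 and 71.7 RPKM, Tcf3 at 31.1 and 45.3 RPKM and Tcf12 at 29.2 and 41.2 RPKM. Hes6, a bHLH gene that favours differentiation by opposing Hes1, was at 141 and 164 RPKM. Of the 11 genes of this list, 8 reached 10 RPKM in both libraries, beside 5243 and 5802 of all 25873 named genes in WT Em2 and WT Em4. Twist1, a brake on Myod1 in mesoderm, was the only one below 1 RPKM in both at 0.804 and 0.966 RPKM.

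The Mef2 factors and cofactors that work with the myogenic factors were of middle level, with a median percentile of 76.6. Cofactors of the TEAD factors led, with Vgll2 at 52.5 and 56.1 RPKM and Vgll3 at 26.3 and 34.2 RPKM. Mef2a was the highest Mef2 gene at 19 and 16 RPKM, followed by Mef2c at 9.77 and 10.6 RPKM and Mef2d at 4.63 and 9.07 RPKM. Mef2b was at 0.122 and 0.391 RPKM and Myocd, the smooth and cardiac muscle cofactor, at 0.00799 and 0 RPKM. Of the Nfi factors, which carry the switch from embryonic to fetal muscle genes, Nfib was at 55 and 75.7 RPKM, Nfic at 34.1 and 52.1 RPKM and Nfix at 23.1 and 33 RPKM. Targets of that switch in the list were Eno3, the muscle enolase, at 31.2 and 34.1 RPKM and Prkcq at 6.97 and 9.36 RPKM. Prox1, which sets the slow fibre programme, was at 3.71 and 4.44 RPKM and Sox6, which sets the fast one, at 2.74 and 3.54 RPKM. Prdm1, a slow fibre gene in fish, was listed at 0 in both libraries.

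Both fusogens were present at high levels. Mymk (myomaker), which acts on both fusing membranes, was at 146 and 143 RPKM, percentile 96.5. Mymx (myomixer), its small partner, was at 308 and 222 RPKM. Of the adhesion genes, Jam3 was at 173 and 180.3 RPKM, and Cdh15 (M-cadherin) was at 117 and 193 RPKM. Rac1, a GTPase of fusion sites, was at 147 and 157 RPKM, and Cav3, the muscle caveolin, at 35.6 and 41.7 RPKM. In contrast the repair gene Dysf was at 0.134 and 0.161 RPKM and the adhesion receptor Adgrb3 at 0.126 and 0.0475 RPKM. Of 28 genes for fusion and adhesion, 18 reached 1 RPKM in both libraries, beside 41.9% of all named genes. There were 5 that reached 100 RPKM in both, beside 1076 of all 25873 named genes.

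Genes known from satellite cells, the muscle stem cells of later life, were present at graded levels. Cdkn1c stood out at 6548 and 7339 RPKM and is described with the cell cycle. Fos, an early response gene in freshly dissociated stem cells, was at 510.1 and 560.4 RPKM, and Hes1, the Notch target, at 271 and 194 RPKM. Cd82 was at 126 and 185 RPKM, Vcam1 at 40.8 and 42.6 RPKM and Fgfr4 at 50.8 and 89 RPKM. The laminin receptor chain Itga7 was at 20.8 and 43.2 RPKM, and Sdc4 at 7.61 and 14.6 RPKM. Of genes tied to quiescence in the adult, Calcr (calcitonin receptor) was at 1.66 and 2.04 RPKM and Rgs5 at 0.158 and 0.0967 RPKM. Cd34 was at 12.2 and 13.8 RPKM. Calcr and Rgs5 were low members of a list with a median percentile of 83.4. In that list 28 of 30 genes reached 1 RPKM in both libraries, beside 41.9% of all named genes. Itga7, Col5a1 and Col6a1 were the members over 2-fold higher in WT Em4, the direction in which 0.681% of the 11306 genes were that far apart.

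In these mononuclear cells many thin filament genes were at very high levels, while 9 of 11 myosin heavy chains averaged under 1 RPKM. Among troponins, tropomyosins and actins, 11 of 15 reached 100 RPKM in both libraries, as did 1076 of all 25873 named genes. Their list had a median percentile of 97.7. Actc1, the cardiac alpha-actin that fetal muscle uses first, was at 2964 and 2352 RPKM, a mean of 2658 ± 433 RPKM (SD, n = 2). Acta1, the skeletal alpha-actin that replaces it, was at 129 and 145 RPKM, so Actc1 exceeded it by 23-fold and 16.3-fold. Reads of these near-identical genes may have been shared in the authors' counting, which is not given. Tnnt1, the slow troponin T, was at 1007 and 765 RPKM and Tnnt2, the cardiac one, at 543 and 486 RPKM. Tnnt3, the fast form, was lower at 52.9 and 58.7 RPKM, which put Tnnt1 above it by 19.1-fold and 13-fold. The slow and fast troponin I genes were closer together, with Tnni1 at 337 and 374 RPKM and Tnni2 at 244 and 194 RPKM. For troponin C the fast gene Tnnc2 led at 193 and 185 RPKM, with Tnnc1 at 83.8 and 81.8 RPKM. The preference for the slow or cardiac form was thus large for troponin T and actin, small for troponin I and the other way round for troponin C, in both libraries. Tropomyosin was carried by Tpm2 at 529 and 528 RPKM, Tpm1 at 227 and 208 RPKM and Tpm3 at 111 and 117 RPKM, and Acta2, the smooth muscle actin, was at 381 and 355 RPKM.

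Only 2 of 11 sarcomeric myosin heavy chains reached 1 RPKM in both libraries, beside 41.9% of all named genes. Myh3, the embryonic chain, was at 6.41 and 12.1 RPKM, percentile 77.7, from 938 and 1657 reads. Myh8, the perinatal chain, was at 1.67 and 3.57 RPKM, and Myh3 exceeded it by 3.85-fold and 3.39-fold. Myh7, the slow chain, was at 0.0203 and 0.094 RPKM with 3 and 13 reads, and the adult fast chains Myh1, Myh2 and Myh4 were between 0.0243 and 0.0822 RPKM on average. The third highest, Myh13 of the eye muscles, was at 0.0845 and 0.211 RPKM. These genes share long stretches of sequence, so their levels are uncertain where reads could be split. The light chains lay higher, with the fast chain Mylpf at 339 and 300.0 RPKM, the embryonic chain Myl4 at 113 and 119 RPKM and Myl1 at 43.4 and 38.9 RPKM. Mylpf exceeded Myh3 by 52.9-fold and 24.8-fold. For members averaging 1 RPKM or more, the median length was 1026 bases in the light chain list and 6070.5 in the heavy chain list. Ratios between these lists may therefore carry the length trend. Of the myosin-binding proteins, Mybpc1, the slow form, was at 19.9 and 25.6 RPKM and the fast form Mybpc2 was listed at 0 and 0.0362 RPKM.

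In the Z-disc and M-line group the median percentile was 64.5. In both libraries 7 of 36 genes reached 10 RPKM, near the share of all named genes (5243 and 5802 of 25873 in WT Em2 and WT Em4). Cryab, a small heat-shock protein of the Z-disc, was the highest at 520.0 and 437 RPKM. Des (desmin), the muscle intermediate filament, was at 131 and 231 RPKM. Klhl41, which stabilises nebulin, was at 28.6 and 28.1 RPKM. The giant filaments were low per length, with nebulin (Neb) at 10.8 and 12.6 RPKM and titin (Ttn) at 2.64 and 4.29 RPKM. Genes of mature fibres lay lower still, with Myot at 0.353 and 0.377 RPKM and Capn3 at 0.258 and 0.339 RPKM. Nebl and Xirp2 were listed at 0 in both libraries.

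Of the neuromuscular receptor genes, that of the fetal subunit was far above that of the adult one. Of its subunits, Chrnb1 was at 58.9 and 71.5 RPKM and Chrna1 at 54.2 and 54.7 RPKM, Chrnd at 16.9 and 25 RPKM and the fetal gamma subunit Chrng at 33.2 and 42 RPKM. The adult epsilon subunit Chrne had 2 and 1 reads, or 0.0515 and 0.0275 RPKM, with counting intervals of 0.00623 to 0.186 in WT Em2 and 0.000696 to 0.153 in WT Em4. Rapsn (rapsyn), which clusters the receptor, was at 51.8 and 65.3 RPKM, and its upstream kinase Musk at 5.71 and 8.04 RPKM. Dok7, the activator of Musk, was at 6.65 and 15.4 RPKM and over 2-fold higher in WT Em4, the only one of 15 genes of the junction list that far apart.

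Calcium handling was led by Mrln (myoregulin), a small peptide that inhibits the calcium pump, at 511 and 280.1 RPKM. The chaperone Calr followed at 73 and 126 RPKM, then Jsrp1, a junctional protein, at 50.4 and 66.9 RPKM. Sln (sarcolipin), another pump inhibitor, was at 61.3 and 51.4 RPKM. The pump genes themselves were lower, with Atp2a2, the slow and cardiac form, at 22.3 and 36.9 RPKM and Atp2a1, the fast form, at 10.4 and 18.2 RPKM. The release channel Ryr1 was at 4.91 and 8.5 RPKM and its voltage sensor Cacna1s at 0.249 and 0.294 RPKM. In the dystrophin complex, Dag1 was at 51.8 and 90.7 RPKM, Sgce at 43.5 and 37.5 RPKM and Sgca at 29.8 and 39 RPKM. Dystrophin itself (Dmd) was at 1.4 and 1.77 RPKM and utrophin (Utrn), its fetal relative, at 2.75 and 5.32 RPKM, so Utrn exceeded Dmd by 1.97-fold and 3.01-fold.

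**Figure D2:**
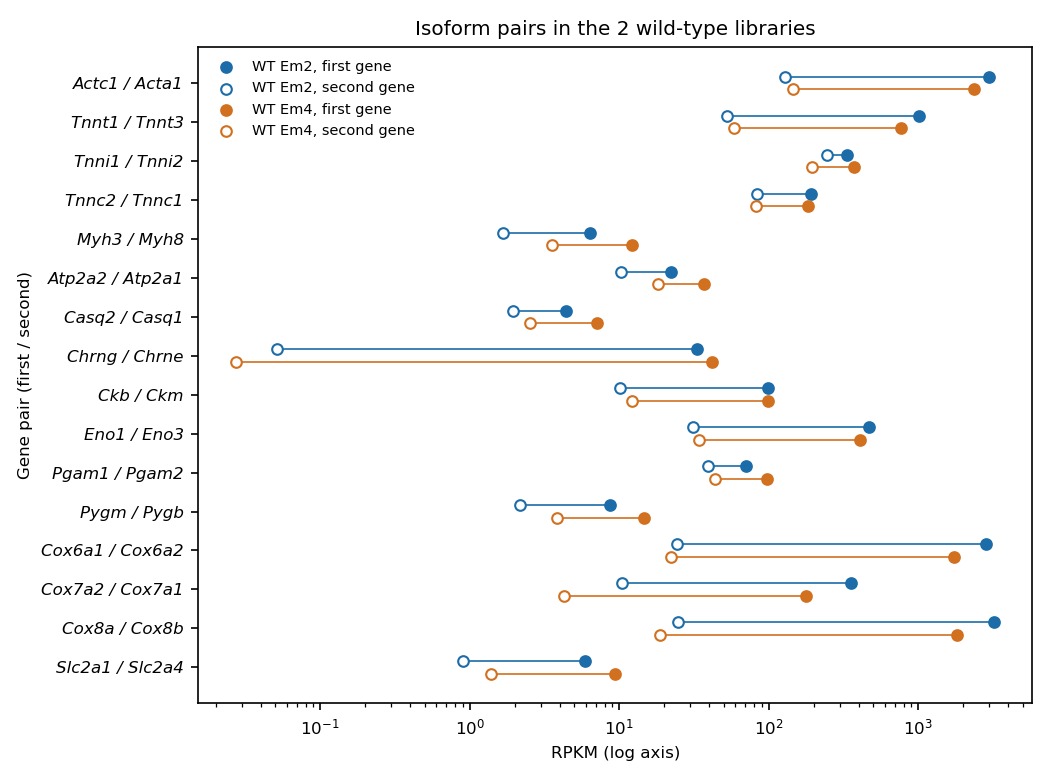
Levels of 16 isoform pairs in RPKM (log axis), with the first-named gene as a filled point and the second as an open point, for WT Em2 (blue, upper line of each pair) and WT Em4 (orange, lower line). The first-named gene is the higher of each pair in both libraries, by the widest margin for Chrng over Chrne, whose second gene rests on 2 and 1 reads. The pairs were chosen after the values were seen.

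Promoter sequences of 3 genes at these levels are shown to set the levels beside the letters that muscle factors are known to read: Myog as the lineage's most abundant myogenic factor, Actc1 as its highest contractile gene and Chrng as the fetal receptor gene. Each is the 250 bases before the gene's RefSeq start, 5′ to 3′ on the gene's strand, on GRCm38.p6. RefSeq starts can differ from those of GENCODE M21, which gave the gene positions above. Capitals mark matches to CANNTG (the E-box, read by bHLH factors) or to the CArG box (read by serum response factor). The genes and motifs were chosen after the values were seen.
Myog promoter (chr1:134289754-134290003, + strand): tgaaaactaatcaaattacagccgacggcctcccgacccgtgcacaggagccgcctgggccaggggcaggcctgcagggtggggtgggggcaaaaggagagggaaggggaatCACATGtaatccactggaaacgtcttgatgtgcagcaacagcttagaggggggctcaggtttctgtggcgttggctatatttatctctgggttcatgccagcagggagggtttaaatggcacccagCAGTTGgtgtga
Actc1 promoter (chr2:114052876-114053125, − strand): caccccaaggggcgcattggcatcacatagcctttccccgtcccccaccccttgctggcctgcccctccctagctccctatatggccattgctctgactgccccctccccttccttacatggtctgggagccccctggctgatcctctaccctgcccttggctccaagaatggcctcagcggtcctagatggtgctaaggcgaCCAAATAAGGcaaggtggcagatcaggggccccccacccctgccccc
Chrng promoter (chr1:87205561-87205810, + strand): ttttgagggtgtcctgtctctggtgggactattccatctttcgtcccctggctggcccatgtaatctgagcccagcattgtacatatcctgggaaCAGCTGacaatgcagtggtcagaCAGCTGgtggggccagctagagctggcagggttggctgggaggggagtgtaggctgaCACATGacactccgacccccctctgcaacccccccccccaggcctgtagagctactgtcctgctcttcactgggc

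Myog held 2 E-boxes, cacatg and cagttg, the latter starting 12 bases before the RefSeq start. By the GENCODE position given above, that cagttg lies just inside the Myog gene. Chrng held 3, of which 2 were CAGCTG, the form that Myod1 and Myog bind well. Actc1 held 1 CArG box, starting 47 bases before its RefSeq start, and no E-box. In GENCODE the Actc1 gene spans chromosome 2, 114047282 to 114053548, so the whole stretch shown lies inside it and not before that start. Over all 32841 promoters of this length in the table, searched on both strands, 66.2% held an E-box, 13.0% a CAGCTG, 1.47% a CArG box, 2.92% a MEF2 box and 12.4% TATAAA. Of 97 muscle structure genes at or above 1 RPKM in both libraries, 68 had a promoter in the table. An E-box was found in 55 of them (80.9%), CAGCTG in 26 (38.2%), a MEF2 box in 8 (11.8%), a CArG box in 5 (7.35%) and TATAAA in 9 (13.2%). Every CAGCTG is also counted as an E-box. These are counts of letters, and no test of the difference was made.

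Among signalling genes, 130 of 196 (66.3%) reached 1 RPKM in both libraries, beside 41.9% of all named genes. For Notch, through which neighbouring cells hold progenitors back, Notch1 was the highest receptor at 7.26 and 13.5 RPKM and Notch3 the next at 5.74 and 11 RPKM, within 1.5-fold of it in each library. Notch2 was at 2.4 and 4.17 RPKM, so Notch1 exceeded it by 3.03-fold and 3.25-fold, and Notch4 was at 0.124 and 0.205 RPKM. Dll1, the main ligand on differentiating myoblasts, was at 7.71 and 11.5 RPKM and Jag1 at 4.0 and 5.73 RPKM. Dll4, a ligand of endothelium, was at 0.0356 and 0.101 RPKM. The highest member of the list was Dlk1, a membrane protein related to the ligands but without the domain that activates the receptor, at 229 and 342 RPKM. In the nuclear pathway, the DNA-binding partner Rbpj was at 8.77 and 13.5 RPKM. The targets were uneven, with Hes1 at 271 and 194 RPKM, Hey1 at 24.4 and 27.1 RPKM and Heyl at 11.1 and 20.1 RPKM, while Hey2 was at 0.598 and 0.76 RPKM and Hes5 at 0.193 and 0.55 RPKM. Ncstn, a part of the gamma-secretase that cleaves the receptor, was at 20.9 and 27.7 RPKM. All 11 receptor and ligand genes were higher in WT Em4 (10 of 11 with median-of-ratios scaling), as were 69.2% of all 11306 genes as deposited. The median difference of the list was −0.59 (log2, WT Em2 minus WT Em4) against −0.21 over all 11306 genes, and none was over 2-fold apart.

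FGF reception was carried by Fgfr4, the receptor of fetal myoblasts, at 50.8 and 89 RPKM, and Fgfr1 at 17.4 and 29.5 RPKM. Fgfr2 was at 0.138 and 0.147 RPKM and Fgfr3 at 0.177 and 0.607 RPKM. Of the feedback inhibitors, Spry1 was at 11.8 and 22.4 RPKM and Spry2 at 11.3 and 15.1 RPKM, whereas the muscle ligand Fgf6 was at 0.0665 and 0.0355 RPKM. Fgf7 was the highest ligand of the list at 2.05 and 1.16 RPKM, below both leading receptors and the Sprouty genes.

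BMP and TGF-beta genes, which restrain differentiation, were led by the shared effector Smad4 at 29.7 and 38.4 RPKM and by Smad1 at 25.8 and 35.3 RPKM. Tgfb2 was the highest ligand at 18.6 and 24.6 RPKM, with Bmp4 at 7.33 and 9.46 RPKM and its inhibitor Nog (noggin) at 6.26 and 8.01 RPKM. Mstn (myostatin), the inhibitor of muscle growth, was at 57 and 47.9 RPKM, percentile 92.4. Its receptor Acvr2b was at 20.3 and 29.8 RPKM, and Fst (follistatin), which binds it, was at 1.35 and 1.68 RPKM. Fstl1, a secreted relative, was at 35.1 and 58.3 RPKM, and Ltbp4, which holds latent TGF-beta in the matrix, was at 8.79 and 21.6 RPKM and over 2-fold higher in WT Em4.

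Wnt ligands were near the floor. Wnt3a and Wnt7a were listed at 0 in both libraries, and Wnt5a was the highest of the Wnt genes in the list at 1.21 and 1.79 RPKM. The pathway's transducer Ctnnb1 (beta-catenin) was at 105 and 123 RPKM, and the DNA-binding Tcf7l1 at 25.3 and 37.1 RPKM. Sfrp2, a secreted inhibitor, was at 26.9 and 31.4 RPKM, and the feedback target Axin2 at 0.327 and 0.267 RPKM. Of the Hedgehog co-receptors, Gas1 was at 69.6 and 83.4 RPKM and Cdon at 7.87 and 11 RPKM and the transducer Smo at 8.89 and 17.8 RPKM. Of its target genes, Gli1 was at 0.828 and 1.84 RPKM and Ptch1 at 0.133 and 0.193 RPKM, and the ligand Shh was listed at 0 and 0.0164 RPKM. Of the genes named here, Ctnnb1, Tcf7l1, Gas1, Cdon and Smo were thus higher than the ligands and the feedback targets of their pathways. This does not cover the receptors, since Ptch1 is also the Hedgehog receptor and no Wnt receptor is named.

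Growth factor genes of the IGF family were abundant. Igf2, the fetal growth factor, was at 232 and 319 RPKM and exceeded Igf1 by 56.7-fold and 49.1-fold. Of the binding proteins, Igfbp2 was at 157 and 219 RPKM and Igfbp3 at 164 and 181 RPKM, and the receptor Igf1r was at 8.78 and 11.4 RPKM. Irs2, an adaptor below that receptor, was at 8.23 and 21.8 RPKM and over 2-fold higher in WT Em4. Met, the receptor that draws progenitors into the limb, was at 3.51 and 4.66 RPKM, and its ligand Hgf at 0.0149 and 0.0476 RPKM. Of the Hippo genes, the target Ccn1 was at 127 and 152 RPKM, Vgll4, which opposes YAP, at 91 and 98.7 RPKM and Tead2 at 33.1 and 49.1 RPKM, while the target Ccn2 was at 0.511 and 0.71 RPKM. Tnfrsf12a, the receptor of TWEAK, led the cytokine receptors at 131 and 157 RPKM, followed by Tnfrsf1a at 10.2 and 16.9 RPKM and Ifngr1 at 11.9 and 12.6 RPKM. Cxcr4, a guide of migrating progenitors, was at 1.83 and 2.17 RPKM.

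**Figure D3:**
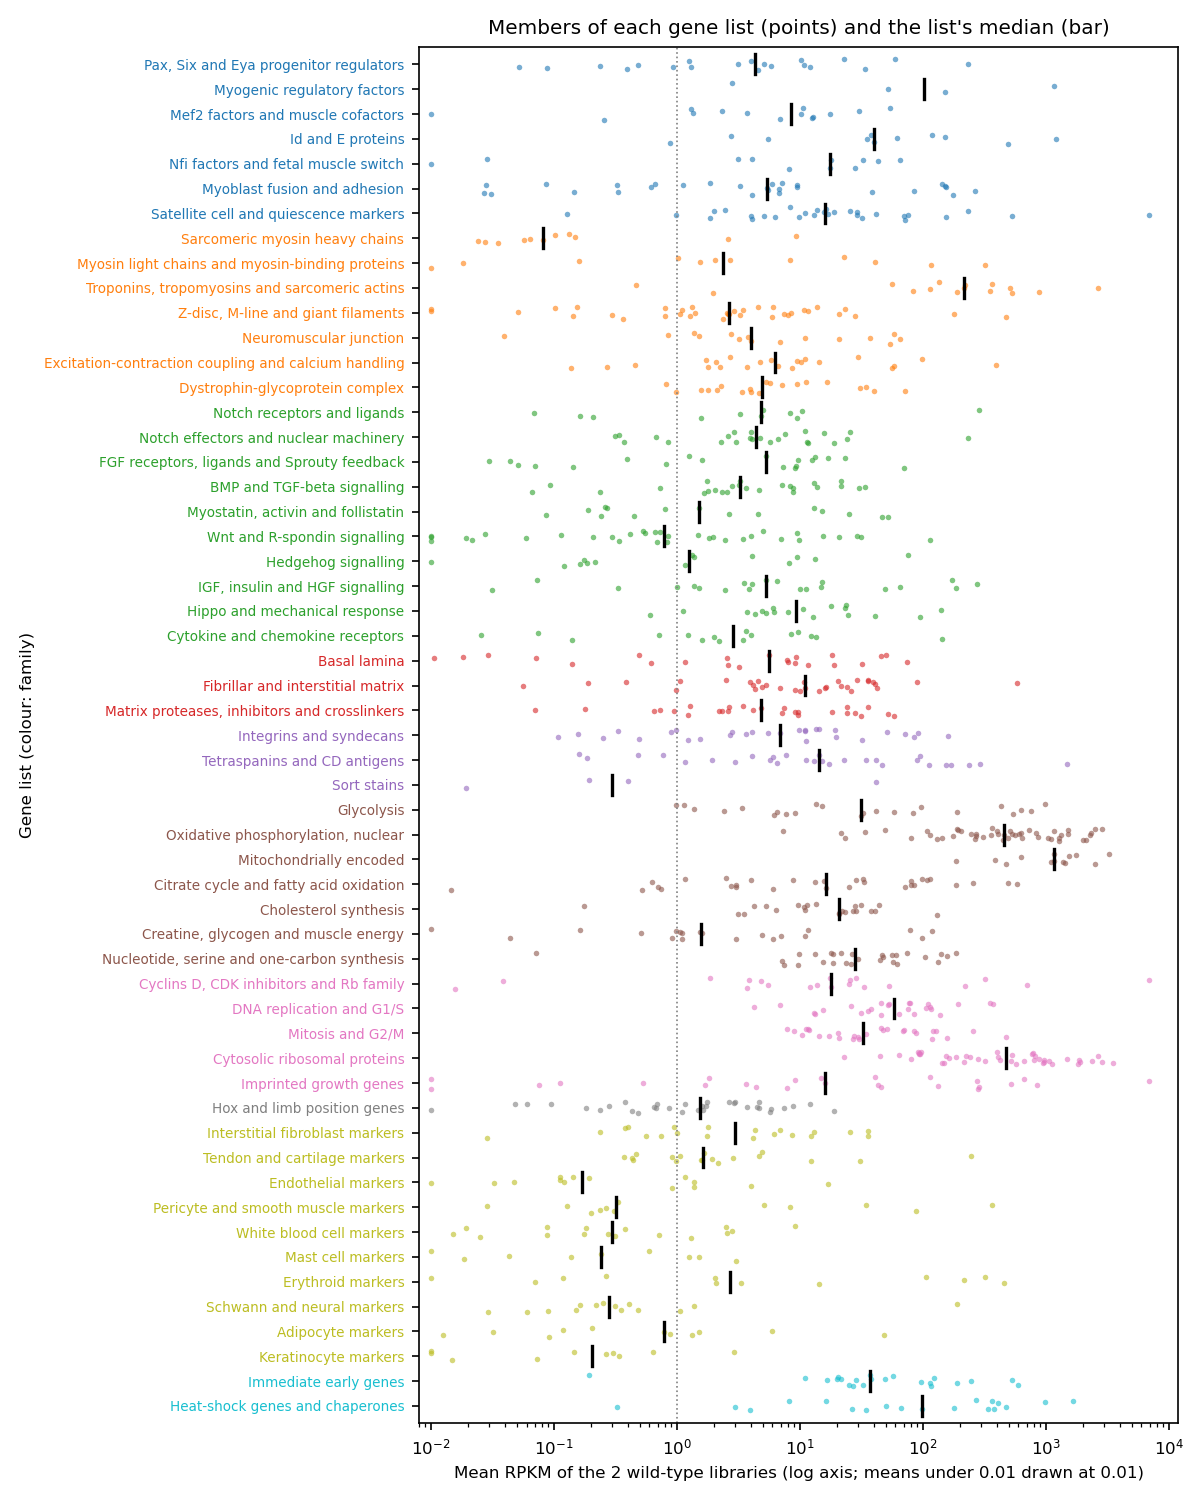
Mean RPKM of the wild-type libraries (log axis) for the measured members of 55 gene lists (points, coloured by family), with the median of each list as a black bar and a dotted line at 1 RPKM. The sarcomeric heavy chains have the lowest median, and the ribosomal, respiratory and mitochondrially encoded genes have the highest. The lists for other cell types lie mostly below or near the dotted line.

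Matrix genes were of middle level, and those of the interstitial list were higher in WT Em4 for 31 of 32 (30 with median-of-ratios scaling). As deposited, so were 69.2% of the 11306 genes, and 92.7% of the longest of 5 groups by gene length (4530 bases or more). Matrix genes are long: for members averaging 1 RPKM or more, the median length was 4926 bases in the interstitial list and 5918.5 in the basement membrane list. Basement membrane genes, whose products wrap the fibres and their stem cells, were led by Col4a1 at 59.5 and 89 RPKM, Col4a2 at 37.2 and 62.7 RPKM and Lamb1 at 34.6 and 57.5 RPKM. Lama2, the laminin chain of mature muscle, was at 6.95 and 11.7 RPKM, while Lama1 was at 0.0516 and 0.0919 RPKM. All 23 genes of the list were higher in WT Em4, as deposited, with equal sums and with median-of-ratios scaling, and Smoc2 was over 2-fold apart at 4.95 and 10.9 RPKM. Of the interstitial matrix, Sparc, a collagen-binding protein, was the highest at 526 and 649 RPKM. Of the fibrillar collagens, Col3a1 was at 61.7 and 119.6 RPKM and Col1a2 at 23 and 62.7 RPKM, and Col1a1 was at 5.23 and 14.8 RPKM. Col1a1, Col1a2, Col5a1 and Col6a1 were over 2-fold higher in WT Em4, 4 of 32 genes against 0.681% of all genes. The median difference of that list was −0.75 (log2), and that of the basement membrane list −0.75. The collagen chaperone Serpinh1 was at 40.02 and 76.6 RPKM, P4ha1, which hydroxylates collagen, at 58 and 46.2 RPKM and the protease inhibitor Timp1 at 40.2 and 31.2 RPKM. Of the matrix proteases, Mmp14 was at 20.9 and 35.3 RPKM and Mmp2 at 18.6 and 29.6 RPKM, and the crosslinker Lox was at 0.693 and 1.21 RPKM.

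At the surface, the genes for CD31 and CD45 were near 0 and that for Vcam1 was not. Ter119, the red cell stain, was not matched to a gene here, and globin transcripts were present, with Hba-a2 at 431 and 478 RPKM. Pecam1, which encodes CD31, was at 0.173 and 0.212 RPKM, and Ptprc, which encodes CD45, had 0 and 5 reads, or 0 and 0.0386 RPKM. The value of 0 in WT Em2 allows up to 0.0217 RPKM (3 reads). Ly6a, which encodes the Sca-1 of interstitial cells, was at 0.594 and 0.211 RPKM. Vcam1, which marks progenitors and was also stained, was at 40.8 and 42.6 RPKM, a mean of 41.7 ± 1.26 RPKM (SD, n = 2). Integrin beta 1 (Itgb1) was at 74.2 and 94.3 RPKM, and its laminin-binding partners were Itga7 at 20.8 and 43.2 RPKM and Itga6 at 14 and 25.2 RPKM. Itga7 exceeded Itga5, a fibronectin-binding chain, by 8.26-fold and 7.68-fold. Glypicans, which present growth factors, led their list, with Gpc3 at 120.4 and 201 RPKM and Gpc1 at 66.6 and 116 RPKM. Of the CD antigens, the tetraspanin Cd63 was at 1679 and 1317 RPKM, Bsg (basigin) at 303 and 283 RPKM and Tspan3 at 235 and 242 RPKM. Of genes used to mark mesenchymal cells, Thy1 was at 0.142 and 0.177 RPKM and Eng at 0.0573 and 0.318 RPKM.

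Energy genes were dominated by respiration. The 13 mitochondrially encoded genes were all above 100 RPKM, led by ND1 at 3626 and 2969.8 RPKM, CYTB at 2612 and 2463 RPKM and COX3 at 1808 and 1731 RPKM, and they took 1.64% and 1.63% of the reads, or 3.34% and 3.28% with the mitochondrial ribosomal RNAs. Of 49 nuclear genes for oxidative phosphorylation, 42 were at or above 100 RPKM in both libraries, as were 1076 of all 25873 named genes. Their list had a median percentile of 98.9. Cox4i1 was at 3279 and 2469 RPKM, Cox8a at 3222 and 1813 RPKM and Cox6b1 at 2964 and 1717 RPKM. The heart and muscle forms of these subunits were scarce, since Cox6a1 exceeded Cox6a2 by 117-fold and 78.8-fold, Cox8a exceeded Cox8b by 131-fold and 97.1-fold and Cox7a2 exceeded Cox7a1 by 34-fold and 41.4-fold. Higher in WT Em2 by over 2-fold, as 0.982% of all genes were, stood Ndufc1 at 1197 and 533 RPKM, Cox7a1 at 10.4 and 4.3 RPKM and the mitochondrial ATP8 at 858 and 393 RPKM.

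Glycolysis was led by Ldha (lactate dehydrogenase A) at 988 and 992 RPKM, Aldoa at 746 and 778 RPKM and Tpi1 at 626 and 646 RPKM. Ldha exceeded Ldhb by 78-fold and 69.6-fold. The general enolase Eno1 exceeded the muscle form Eno3 by 15-fold and 11.9-fold, but the muscle mutase Pgam2 was at 39.5 and 43.7 RPKM beside 70.3 and 97.5 RPKM for Pgam1. The insulin-responsive glucose carrier Slc2a4 was at 0.90 and 1.4 RPKM, below the general carrier Slc2a1 at 5.95 and 9.45 RPKM. For phosphocreatine, the brain-type kinase Ckb was at 98.7 and 99.7 RPKM and exceeded the muscle kinase Ckm by 9.8-fold and 8.23-fold. Creatine synthesis was present, with Gamt at 116 and 122 RPKM and Gatm at 77.8 and 79 RPKM, and the mitochondrial kinase Ckmt1 was listed at 0 in both. Pygm, the muscle glycogen phosphorylase, was already the higher form and exceeded Pygb by 3.99-fold and 3.84-fold. In the pairs of energy genes plotted, the muscle form was thus the lower one except for Pygm, and the gap was narrowest for Pgam1 over Pgam2 at 1.78-fold and 2.23-fold.

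In the citrate cycle, Mdh2 was at 571 and 601 RPKM, Idh2 at 483 and 499 RPKM and Mdh1 at 296 and 221 RPKM. Ppargc1a, the coactivator of mitochondrial biogenesis, was at 0.649 and 0.613 RPKM, and Cpt1b, the muscle gate for fatty acids, at 0.0142 and 0.0151 RPKM. Myoglobin (Mb) was at 0.785 and 1.43 RPKM. Biosynthesis was active by transcript level, with the serine pathway gene Psat1 at 155 and 163 RPKM, Phgdh of the same pathway at 121 and 161 RPKM and the purine enzyme Paics at 201 and 172 RPKM. Of the sterol pathway, Fdps was at 146 and 114 RPKM, Fdft1 at 46.4 and 42.6 RPKM and Pmvk at 39.7 and 42.2 RPKM.

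Genes of the dividing cell and of cell cycle exit were high in the same libraries. Cdkn1c (p57), an inhibitor of cyclin-dependent kinases that works with Myod1 in cell cycle exit, was at 6548 and 7339 RPKM, place 4 of all named genes and a mean of 6943 ± 559 RPKM (SD, n = 2). It exceeded Cdkn1a (p21), at 303 and 343 RPKM, by 21.6-fold and 21.4-fold, and Cdkn1b (p27), at 4.55 and 5.08 RPKM, by 1440.1-fold and 1446-fold. Cdk4, a kinase those proteins bind, was at 674 and 748 RPKM. Ccnd3, the D cyclin of differentiating muscle, was at 149 and 291 RPKM and exceeded Ccnd1 by 5.09-fold and 7.68-fold. All 26 replication genes and all 28 mitosis genes were at or above 1 RPKM in both libraries, beside 41.9% of all named genes. Pcna, the sliding clamp, was at 421 and 325 RPKM, Ccne1 at 305 and 398 RPKM and Slbp at 210.3 and 174 RPKM. For mitosis, Ube2c was at 485 and 462 RPKM, Cenpa at 279.7 and 230.1 RPKM and Cdk1 at 172 and 146 RPKM, and Mki67 was at 22.5 and 33.2 RPKM. Median percentiles were 93 for the replication list and 89.3 for the mitosis list. Bulk values do not show whether single cells carried both sets of transcripts.

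Of 25 measured imprinted growth genes, several of which restrain or promote fetal growth, 8 reached 100 RPKM in both libraries. Of all 25873 named genes, 1076 did so. The noncoding H19 was at 652 and 1053 RPKM and Mest at 595 and 739 RPKM. Gnas was at 452 and 585 RPKM, Nnat at 285 and 280.2 RPKM and Ndn at 115 and 154 RPKM. Ascl2 was listed at 0 in both, and Rtl1 was at 0.462 and 0.593 RPKM.

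The 20 protein-coding genes of highest mean level held 10.8% and 9.52% of the summed RPKM of all named genes and joined muscle, cytoskeletal and housekeeping genes. Lgals1 (galectin-1), a secreted lectin of myoblasts, was first at 8706 and 5941 RPKM. Cdkn1c was the second, and Itm2a, a membrane protein of differentiating muscle, the fourth at 4429.5 and 4841 RPKM. Actb, the cytoplasmic actin, was at 3002 and 2872 RPKM, Pfn1, which binds actin, at 2659.8 and 2946 RPKM, and Actc1 was the highest sarcomeric gene. The ribosomal genes among them included Rpl41, Rps14, Rpl32, Rps27rt and Rplp1, between 2987 and 1806 RPKM for Rplp1 and 7369.6 and 3694 RPKM for Rpl41. The respiratory genes were Atp5g3, Cox4i1, Cox8a, Cox6b1, Cox6a1, ND1 and CYTB, with Atp5g3 at 3652 and 2687 RPKM. The histone gene H2ac24, in place 5 of the coding genes, was at 5256 and 2433 RPKM. Of the top 20 coding genes of each library, 15 were shared, as were 84 of the top 100 and 447 of the top 500. Ribosomal and histone genes have near-identical copies, and their levels are uncertain to that extent.

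Markers of other cell types were mostly low but not absent. Among 14 endothelial genes, Erg was listed at 0 in both. Of the defining genes, Cdh5 was at 0.0103 and 0.0549 RPKM and Kdr at 0.0676 and 0.176 RPKM, while Egfl7 was at 15.9 and 18.1 RPKM, Tek at 2.98 and 5.1 RPKM and Cldn5 at 1.01 and 1.76 RPKM. The list's summed level was 23.4 and 29.8 RPKM, with 4 genes at or above 1 RPKM in both libraries, beside 41.9% of all named genes. White blood cell genes summed to 16.7 and 24.6 RPKM, with 3 of 16 at or above 1 RPKM in both, Cd68 at 8.69 and 9.64 RPKM, Fcer1g at 2.61 and 2.99 RPKM and Cd79a at 1.76 and 3.36 RPKM. Lyz2 was over 2-fold higher in WT Em4 at 0.891 and 4.1 RPKM. Mast cell genes summed to 3.73 and 9.96 RPKM, and Fcer1a was listed at 0 in both. Cma1 was at 1.52 and 4.55 RPKM, Tpsb2 at 0.452 and 2.57 RPKM and Cpa3 at 1.18 and 1.32 RPKM. Of these, Cma1 and Tpsb2 were also over 2-fold higher in WT Em4, as were 0.681% of the 11306 genes averaging 1 RPKM or more. Globin was the exception to these low levels, with Hba-a2 at 431 and 478 RPKM, Hbb-b1 at 266 and 373 RPKM and Hba-a1 at 179.7 and 252 RPKM. Globin genes took 0.0577% and 0.0719% of the reads.

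The interstitial fibroblast list summed to more than the endothelial, white blood cell and mast cell lists and to less than the erythroid list, which reached 998 and 1240.4 RPKM with its globins. Of 20 interstitial fibroblast markers, 12 reached 1 RPKM in both libraries, beside 41.9% of all named genes. The list summed to 136 and 186 RPKM, with Gsn at 29.6 and 42.8 RPKM, Dcn at 30.7 and 40.7 RPKM and Fbln1 at 19.3 and 32.5 RPKM. The defining receptor Pdgfra was at 0.559 and 1.44 RPKM and Pi16 at 0.0182 and 0.039 RPKM. Of the tendon and cartilage genes, Egr1, also an early response gene, was at 225 and 266 RPKM, Scx (scleraxis) at 30.5 and 31 RPKM and Sox9 at 10.1 and 14.6 RPKM. The cartilage collagen Col2a1 was at 2.2 and 7.62 RPKM and the tendon gene Tnmd at 2.13 and 7.2 RPKM. Both were among the 3 genes of that list over 2-fold higher in WT Em4, as were 0.681% of the 11306 genes. By any margin, 17 of its 18 genes were higher in WT Em4 (15 with median-of-ratios scaling). The list summed to 279.8 and 349.7 RPKM. Over the 11306 genes the share higher in WT Em4 was 69.2% as deposited. The pericyte list was led by Acta2, given above, Tagln at 88.2 and 87 RPKM and Mcam at 27.7 and 41.6 RPKM, but Pdgfrb was at 0.235 and 0.428 RPKM and Myh11 at 0.0247 and 0.033 RPKM. Pmp22 was at 182 and 201 RPKM among Schwann cell genes, while the defining gene Sox10 was at 0.151 and 0.177 RPKM. Erbb3 of that list was at 1.02 and 1.73 RPKM. Fabp4, a gene of fat and capillary cells, was at 65.1 and 31.2 RPKM and over 2-fold higher in WT Em2, while Lpl was at 5.04 and 6.8 RPKM, Adipoq at 1.7 and 1.35 RPKM and Plin1 at 0.321 and 0.0913 RPKM. Keratin genes were near the floor, with Krt8 at 3.27 and 2.57 RPKM, Krt18 at 0.907 and 0.375 RPKM, Trp63 at 0.21 and 0.462 RPKM and Krt15 listed at 0 in both. What other cells contribute to the matrix levels above was not tested.

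Across the 11306 genes averaging 1 RPKM or more the libraries had a Pearson correlation of 0.983 on log2(RPKM + 1) and a Spearman correlation of 0.978. This describes the spread of levels over genes, which are not replicates, and has no p. The median absolute difference was 0.32 (log2), and 81.6% of genes were within 1.5-fold. A total of 188 genes (1.66%) were over 2-fold apart, 111 (0.982%) higher in WT Em2 and 77 (0.681%) higher in WT Em4. That split depends on scaling: with both libraries set to the same sum it was 34 and 382, and with median-of-ratios scaling 328 and 35. Counting noise did not cover the differences, since 69.9% of genes lay outside their 95% counting interval, and the chi-square of the reads was 100.5 per gene over 11206 genes. The libraries were therefore not copies of 1 library. With 1 library on each side, no test of the difference between them was possible.

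**Figure D4:**
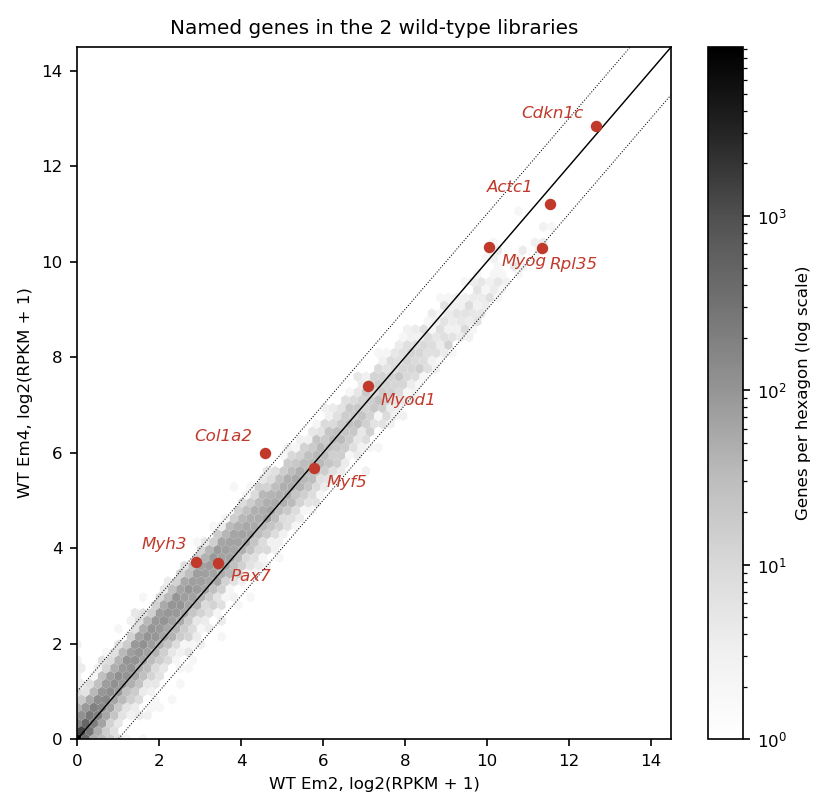
Level of each named gene in WT Em2 (horizontal) against WT Em4 (vertical) as log2(RPKM + 1), in hexagons shaded by the number of genes on a log scale. The solid line marks equal levels and the dotted lines 2-fold differences. The myogenic factors lie near the solid line, Col1a2 lies above the upper dotted line and Rpl35 just beyond the lower one, and the cloud bends from above the line at low levels to below it at high levels.

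The difference between the libraries ran with gene length and with level. In 5 groups of equal size by gene length, from 42 to 1331 bases up to 4530 to 104320 bases, the median difference (log2, WT Em2 minus WT Em4) was 0.23, −0.11, −0.24, −0.32 and −0.40. The group of shortest genes held 147 of the 188 genes over 2-fold apart. By level, the median difference went from −0.29 for genes of 1 to 5 RPKM to 0.25 for those of 100 to 1000 RPKM and 0.56 for those above 1000 RPKM. The short and abundant ribosomal protein genes had a median difference of 0.55, with 42 of 44 higher in WT Em2 (35 with equal sums), and Rpl24, Rpl35, Rpl37 and Rpl38 over 2-fold apart. In the group of shortest genes as a whole, 30.8% were higher in WT Em4. Rpl38 was at 214 and 92.6 RPKM and Rpl35 at 2583 and 1249 RPKM, while Rps14, the highest of the list, was at 4181 and 2841 RPKM. The long matrix genes went the other way, as given above. With the trend on length removed, the median of the ribosomal list relative to all genes moved from 0.76 to 0.21, that of the respiratory list from 0.64 to 0.20 and that of the interstitial matrix list from −0.55 to −0.35. What part length, level or the handling of each library had in these differences was not tested, and with 1 library on each side they cannot be told apart.

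**Figure D5:**
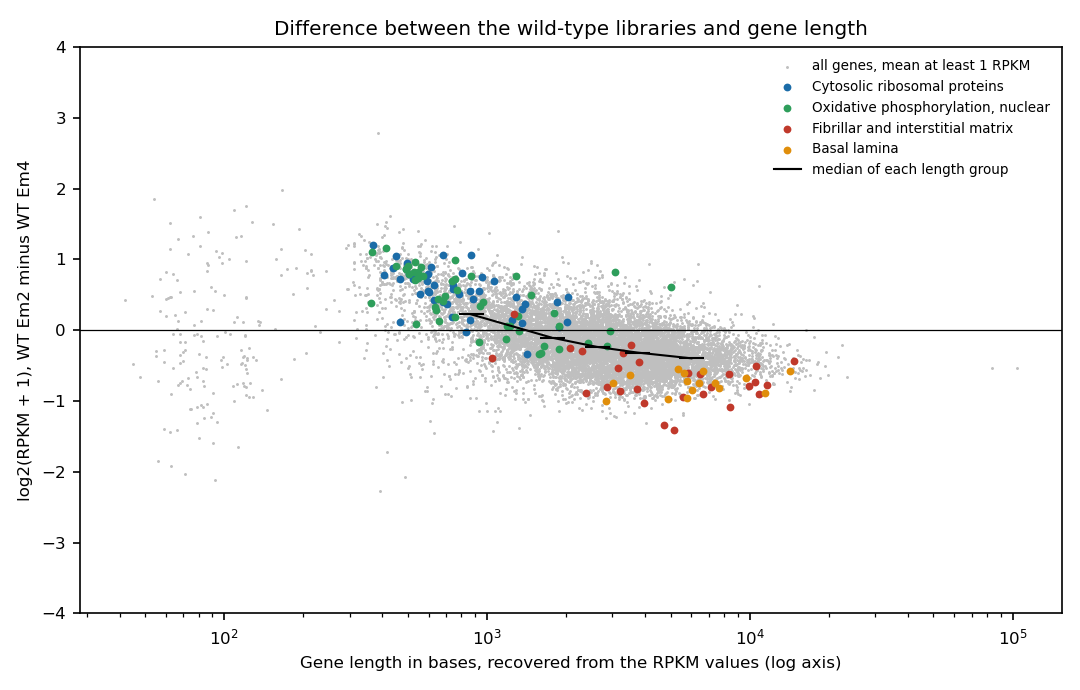
Difference in log2(RPKM + 1), WT Em2 minus WT Em4, against gene length in bases (log axis) for the 11306 genes averaging 1 RPKM or more (grey), with 4 lists in colour and the median of each of 5 length groups as black bars joined by a line. The medians fall from 0.23 to −0.40. Ribosomal and respiratory genes lie at the short end and mostly above 0, matrix and basal lamina genes at the long end and mostly below.

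The myogenic regulators differed little between the libraries beside that background. The median difference of the 4 myogenic regulatory factors was −0.27, that of the progenitor regulators −0.32 and that of the Id and E protein genes −0.21, beside −0.21 for all genes. By gene it was −0.27 for Myog, −0.30 for Myod1, 0.11 for Myf5 and −0.25 for Pax7. Over all genes, the protein-coding genes of largest difference at a mean level of 10 RPKM or more were Fam98b, Dnajb3, Smim27, Atp5md, H4c4, H3c3, Ndufa12 and Rpl38 on the side of WT Em2, with Fam98b at 60.7 and 22.4 RPKM and H4c4 at 1165 and 494 RPKM. On the side of WT Em4 they were Col1a2, Col1a1, Irs2, Eef2, Ltbp4, Tmed9, Nisch and Dvl1. Eef2, an elongation factor of translation, was at 128 and 302 RPKM, and Tmed9, a cargo receptor of the secretory pathway, at 37.4 and 86.7 RPKM. The first set held 7 genes no longer than 1017 bases, against none in the second.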

How the data were processed

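RNA was measured in sorted tdTomato-positive cells with the SMART-Seq v4 kit and paired ends on an Illumina instrument, per the labels' protocols. Per the file headers, the authors deposited 27179 rows of RPKM values for 5 libraries. Tools and builds listed in the submitters' processing notes are bcl2fastq 2.20.0 and mm10, and the aligner, counter, annotation and any use of strand were not given in the sources used here. Rows without a name (1306, holding 3.07% and 2.47% of the summed RPKM of WT Em2 and WT Em4) were left out.

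Only the 2 WT columns were described, since the labels put them in 1 group, while all 5 columns served to recover depth. Whole reads were recovered from the steps of the RPKM values, at totals of 24416667 and 22855608 reads. Each gene length was chosen as whole bases that make the reads whole. That all 17623 and 17709 values were then whole within 0.02 reads was fixed by that choice and is no check. At annotated lengths, 50.8% and 51.1% of single-transcript genes with few reads were whole at the best-scoring total. The median over all totals tried was 1.00% and 0.995%. No count test was run, because no groups were compared. The recovered lengths gave the length groups and the loess trend (span 0.3). The alternative had been planned with annotated lengths, and the recovered lengths replaced them because few equal those of GENCODE M21. On simulated data of 8000 genes the script recovered 5 of 5 totals, and 97.8% of lengths for genes with at least 20 reads. In the same run 99.5% of 200 genes changed 4-fold passed the 2-fold limit, as did 0.0651% of the unchanged. The unchanged genes were simulated with counting noise alone and no length trend. Their share is therefore no guide to how often genes pass that limit between the real libraries.

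Differences between libraries are on log2(RPKM + 1), which understates the change of low genes, for genes averaging 1 RPKM or more. Names were matched to RefSeq (97.1%) for gene class and to GENCODE M21 on GRCm38 for positions, which may not be the authors' annotation. The table lists the mitochondrial genes without a prefix (ND1, COX1). Python 3.11.15, numpy 2.4.6, pandas 2.3.3, scipy 1.17.1 and statsmodels were used.

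The genes named are the 20 coding genes of highest mean, the core myogenic and sort-stain genes, the 3 highest members of each list with those at 0 in both libraries, members over 2-fold apart with a mean of at least 5 RPKM (up to 3 a direction; all 4 such genes are named for 2 lists), the 8 coding genes of largest difference per direction above a mean of 10 RPKM, and further members for their role. The members and lists were chosen with earlier results of these data known. Some genes that this rule names are not reported here.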

Additional observations from a re-analysis of the deposited data

How the results depend on the processing

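The number of genes at or above 1 RPKM in both libraries fell from 10848 to 6971 at a limit of 5 RPKM and stayed between 10095 and 12031 at 0.5 RPKM, for coding genes only or as TPM. A single library gave 11024 (WT Em2 alone) or 11498 (WT Em4 alone). Of the 188 genes over 2-fold apart (111 higher in WT Em2, 77 in WT Em4), other settings gave 119 with a mean of at least 5 RPKM (84 and 35), 293 with a pseudocount of 0.5 (132 and 161), 472 with 0.1 (155 and 317), 416 with equal sums (34 and 382) and 363 with median-of-ratios scaling (328 and 35). No filter gave 218 and removal of the length trend 136 (34 and 102). The median of all genes was −0.21 as deposited, −0.43 with equal sums and 0.00 with median-of-ratios scaling. The Pearson correlation stayed between 0.978 and 0.989.

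The median over the 55 lists of their median percentile was 71.7 as reported, 61.2 among genes above 0, 66.9 among coding genes, 70.4 in WT Em2 alone and 71.4 in WT Em4 alone. The median level of the 173 genes whose levels were recomputed was 87.6 RPKM, or 129 as TPM, 73.0 RPKM in WT Em2 alone and 94.3 RPKM in WT Em4 alone. List differences were taken relative to the median of all genes here. With the length trend removed, 28 of 55 moved by over 0.1, a limit set after seeing the values, and the myosin light chain list reversed from 0.14 to −0.31. The mitochondrially encoded list also changed sign, from 0.29 to −0.07.

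No paired analysis was possible because 1 group was used, its columns carry no replicate number and no test was made. At these depths a value of 0 allows 3 reads, and differences between the 2 libraries have no replicate check.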

Other observations

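Positional genes were of middle rank, with a median percentile of 59.6. Only 2 reached 10 RPKM in both libraries, beside 5243 and 5802 of all 25873 named genes in WT Em2 and WT Em4. Of 34 Hox and limb genes, 19 (55.9%) reached 1 RPKM in both libraries, beside 41.9% of all named genes. Hoxa7 was the highest at 19.2 and 18.8 RPKM, followed by Hoxa10 at 11.3 and 13.1 RPKM and Hoxc9 at 9.32 and 8.25 RPKM. Hoxa11, a gene of the middle limb segment, was at 2.24 and 3.04 RPKM. Of the genes of hand and foot, Hoxa13 was at 0.125 and 0.0666 RPKM and Hoxd13 at 0 and 0.0176 RPKM. Of the hindlimb factors, Tbx4 was at 1.22 and 1.13 RPKM and Pitx1 at 1.32 and 2.16 RPKM. Tbx5, the forelimb factor, had 4 and 5 reads, or 0.0416 and 0.0555 RPKM, with counting intervals of 0.0113 to 0.106 in WT Em2 and 0.018 to 0.13 in WT Em4. The labels name limb muscle and do not say which limbs were taken.

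Early response genes were high in both libraries, with a median percentile of 90.3. At or above 10 RPKM in both were 20 of 22, beside 5243 and 5802 of all 25873 named genes in WT Em2 and WT Em4. Junb was at 483 and 714 RPKM, Fos at 510.1 and 560.4 RPKM and Egr1 at 225 and 266 RPKM. In WT Em4, 20 of the 22 were higher (14 with median-of-ratios scaling), beside 69.2% of the 11306 genes averaging 1 RPKM or more as deposited. Among the 20 was Socs3 at 23.9 and 50.9 RPKM, which was over 2-fold apart. Among chaperones, Hsp90ab1 was at 1532 and 1784 RPKM, Hspe1 at 1292 and 702 RPKM and Cryab at 520.0 and 437 RPKM, while the near-identical stress-induced copies were lower, Hspa1a at 2.11 and 3.82 RPKM and Hspa1b at 3.16 and 4.73 RPKM.

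Outside the protein-coding genes, the named row of highest mean was Mir682 at 17510.2 and 8520.0 RPKM over a length of 96 bases, above every coding gene in both libraries. The mitochondrial ribosomal RNA mt-Rnr2 was at 9490.4 and 9475 RPKM, below that row in WT Em2 and above it in WT Em4. Of the genes at or above 1 RPKM in both libraries, 10095 were protein-coding, 252 long noncoding RNAs, 71 small nucleolar RNAs and 38 microRNA genes, with 201 pseudogenes and 94 transcribed pseudogenes. Such short or copied rows can hold reads of a neighbouring or parent gene, which these files cannot separate. The microRNA of that row was not measured as a mature molecule.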
